A study of Mus musculus with 58 samples.

Results

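Bins of 100 bp on the 19 autosomes in which H3K27ac reads piled up to 10 RPKM or more were collected from 2 tracks of mouse oocytes. RPKM is a read density scaled to bin length and library size. A bin was a member when it reached this level in the control or in the knockout track, and a segment of chromosome 2 beginning at 77700001 (mm9, as all coordinates here) was left out. The rule gave 3298 bins, out of 14248586 autosomal bins with a read in either track. Member bins less than 5 kb apart were grouped into 2197 sites, of which 146 were found in both tracks, 145 in control alone and 1906 in knockout alone. The members were chosen by their RPKM in these same tracks, so their levels, counts and ratios are descriptions of these libraries.

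The series maps histone marks from growing oocytes to early embryos, in 58 samples and 34 groups. Both tracks came from full-grown oocytes and from STAR ChIP-seq, an immunoprecipitation method for few cells, with an Active Motif antibody against H3K27ac. Control oocytes were labelled Setd2+/-, so the control itself is heterozygous, and knockout oocytes were labelled Setd2-/- and belonged to the maternal knockout of Setd2. Females were 8 weeks old and injected with PMSG and hCG per the labels. How Setd2 was deleted is not given in the sources used here. The remaining 54 samples were not used.

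Each genotype had 2 replicates, which the authors pooled into 1 track. There was therefore no spread between replicates, no test and no p-value. The control pool held 30694806 reads in 11679676 bins and the knockout pool 29367645 reads in 8718653 bins, as recovered from the step between values. One read was worth 0.326 RPKM in control and 0.341 RPKM in knockout, so the threshold stood for 31 reads in control and 30 in knockout. Intervals given below are at 95%, cover only counting error and would be too narrow where reads of 1 molecule were counted more than once.

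Acetylation of histone H3 at lysine 27 marks active promoters and enhancers, where it usually forms islands broader than a single bin. SETD2 is the methyltransferase that places trimethylation on lysine 36 of the same histone over transcribed genes. Satellites and other tandem repeats are present in many more copies in a genome than in its assembly. Reads from all copies can then be placed on the few assembled ones, which gives tall and narrow stacks that input libraries usually share. Mouse chromosomes have their centromere at one end, and the assembled sequence begins next to it. The sites were not compared with an mm9 sequence, repeat map or input, so whether they lie in satellites was not tested, and they are called pile-up sites. No sequence is shown and no gene is named for the same reason.

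Pile-up bins were few in both pools and more numerous in the knockout. In control, 705 of 24151061 autosomal bins reached 10 RPKM, which is 0.00292% of them. In knockout 3121 bins did so, or 0.0129%, and 528 bins, or 0.00219%, passed in both. The bins passing in both made up 74.9% of the control bins but 16.9% of the knockout bins. A single stretch of chromosome 11, described below, held 629 of the 3298 bins. Without it 340 control bins and 2505 knockout bins remained, of which 176 passed in both, 51.8% of the control bins and 7.03% of the knockout bins.

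The highest bin reached 484 RPKM in control, while knockout reached 2556 RPKM, against autosomal means of 0.383 and 0.395 RPKM. At the threshold itself the levels were continuous. The control levels just inside it were 10.1 RPKM (26 bins) and 10.4 RPKM (25 bins), and those just outside were 9.78 RPKM (32 bins) and 9.45 RPKM (27 bins). In knockout the levels just inside were 10.2 RPKM (268 bins) and 10.6 RPKM (240 bins), and those just outside were 9.88 RPKM (297 bins) and 9.54 RPKM (419 bins). No gap in the levels separated members from other bins in either pool.

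Whether a bin was also a pile-up in the other pool went with its level. Of the 2027 knockout bins at 10 to 20 RPKM, 3.40% reached 10 RPKM in control, and their median control level was 0.65 RPKM. This share was 30.3% of the 756 knockout bins at 20 to 50 RPKM, 64.1% of the 270 bins at 50 to 100 RPKM and 83.8% of the 68 bins at 100 RPKM or more. Read from the control side, the shares were 70.0% of 444 bins, 82.0% of 217 bins, 84.8% of 33 bins and 100% of 11 bins in the same level classes. The chromosome 11 stretch weighed on several of these shares. In control it supplied most of the bins at 10 to 20 RPKM that passed in both pools, 311 with it and 79 without, and none at 50 to 100 RPKM. Without it the knockout shares were 1.98%, 14.4%, 31.8% and 81.0%, and the control shares were 38.7%, 63.0%, 84.8% and 100%. The order of the classes was the same with and without that stretch. A low pile-up in the knockout pool seldom reached 10 RPKM in control, though of all autosomal bins only 0.00292% did. A lower control level was more frequent. Of the knockout bins at 10 to 20 RPKM, 23.6% had at least 5 times the autosomal mean in control, or 20.2% without the stretch. Of all autosomal bins 3.65% have it.

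**Figure D1:**
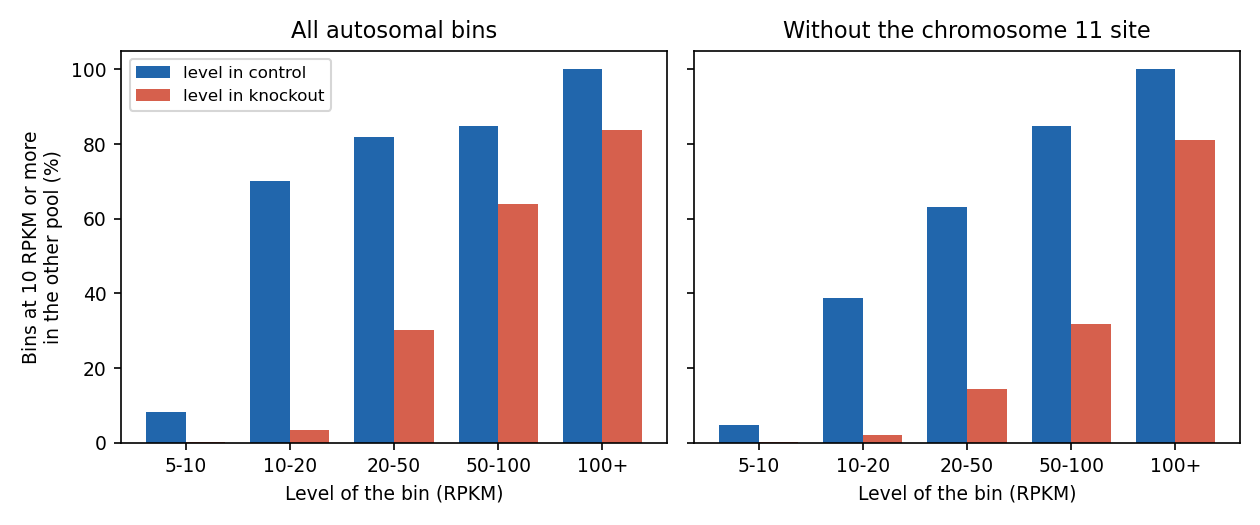
Share of autosomal 100 bp bins at 10 RPKM or more in the other pool (vertical axis, percent) by the level of the bin in its own pool (horizontal axis, RPKM), for levels read in control (blue) and in knockout (red), with all bins on the left and without the chromosome 11 site on the right. Knockout bins at 10 to 20 RPKM passed in control in 3.40% of cases and those at 100 RPKM or more in 83.8%.

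Member bins drew a small part of each library. They held 66584 control reads, 0.217% of the pool (Wilson interval 0.215 to 0.219), and 280932 knockout reads, 0.957% (0.953 to 0.960). Sites found in both pools took 0.161% of control reads and 0.597% of knockout reads. Sites found in control alone took 0.0275% and 0.00658%, and sites found in knockout alone took 0.0289% and 0.353%. For sites found in 1 pool alone the direction of these shares is set by the rule. Without the chromosome 11 stretch the members held 0.136% of control reads and 0.697% of knockout reads.

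**Figure D2:**
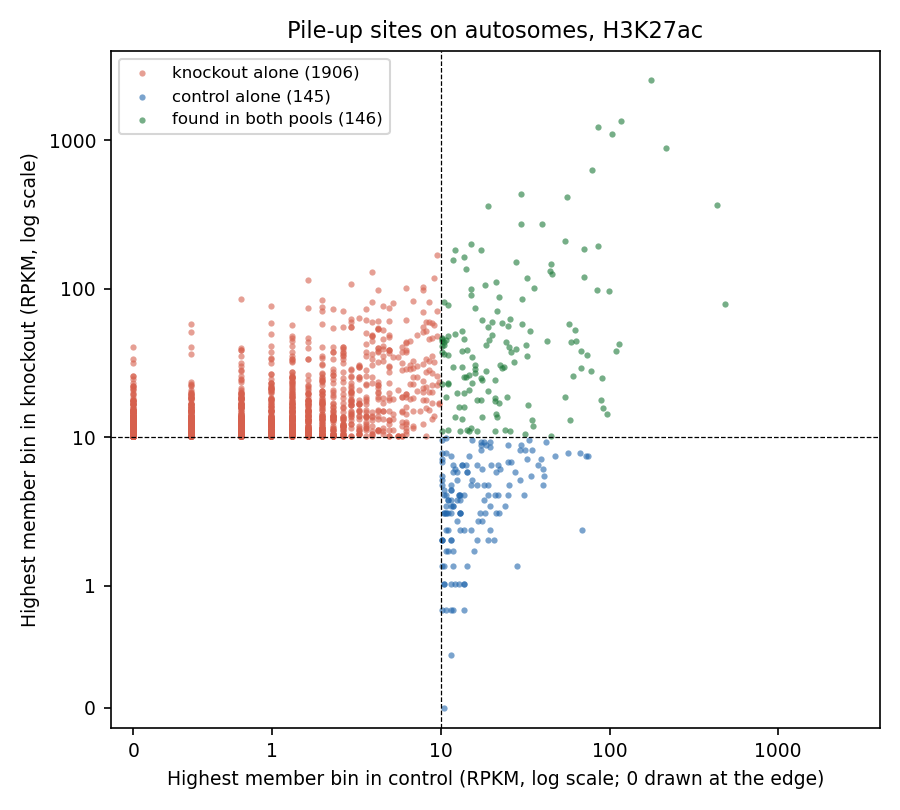
Highest member bin of each of the 2197 sites in control (horizontal axis) and knockout (vertical axis), both in RPKM on log scales, with a level of 0 drawn at the edge and dashed lines at the threshold of 10 RPKM. Sites found in both pools (146, green) fill the upper right and reach 2556 RPKM, those found in knockout alone (1906, red) stop at 167 RPKM, and those found in control alone (145, blue) stop at 74.6 RPKM.

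The 146 shared sites were mostly single bins. A single bin made up 104 of them, 2 or 3 bins made up 31, and 11 had 4 bins or more. In 136 sites the same 100 bp bin passed the threshold in both pools, and in 10 the pools passed in different bins of the site. Stacks at single-bin sites ended abruptly. By the rule such a site has no other bin at 10 RPKM or more less than 5 kb away, so broader signals were sorted out beforehand. The richest bin held a median of 86.6% of the reads in the 1100 bp around it in control and 88.5% in knockout. In 83 of the 104 sites each of the bins on either side was under 10% of the richest bin in both pools. The 5 kb on either side of shared sites had median levels of 0.433 RPKM in control, 1.13 times its autosomal mean, while knockout had 0.561 RPKM, 1.42 times.

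**Figure D3:**
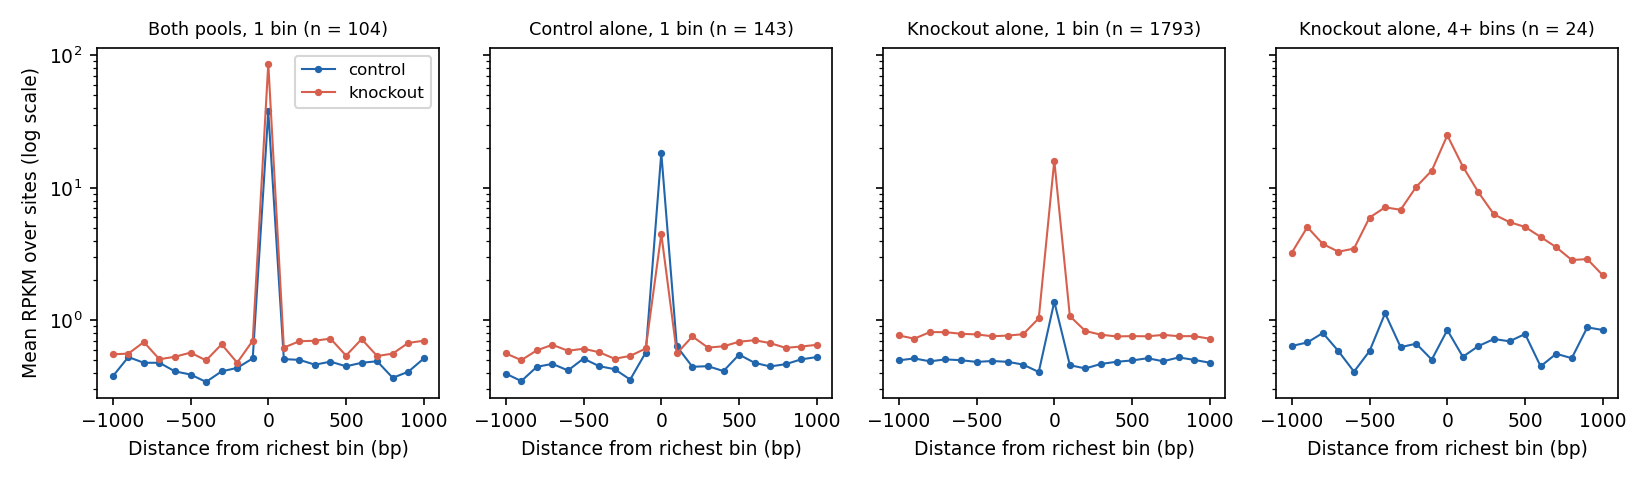
Mean RPKM over sites (vertical axis, log scale) against distance from the richest bin (horizontal axis, bp) in control (blue) and knockout (red), for single-bin sites of each kind and for knockout-alone sites of 4 or more bins; 1 knockout-alone site too close to a chromosome end is left out of the third panel. Single-bin sites drop close to their surroundings within 1 bin on either side. Those found in knockout alone keep a small shoulder in knockout, 1.03 and 1.07 RPKM at 100 bp against 0.784 and 0.829 RPKM at 200 bp. A shoulder is not particular to them. Those found in control alone have 0.570 and 0.634 RPKM in control at 100 bp, against 0.356 and 0.445 RPKM at 200 bp. The 24 wide knockout-alone sites, chosen for several knockout bins past the threshold, slope more broadly in knockout.

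Ratios of knockout over control at the shared sites spread over 2 orders of magnitude. The median ratio was 1.88, with quartiles of 0.905 and 4.03 and extremes of 0.147 and 19.1, and 106 of 146 sites were higher in knockout. At least 2-fold higher in knockout were 71 sites (48.6%), at least 2-fold lower were 18 (12.3%), and 57 lay within 2-fold. For scale, among autosomal 5 kb windows no poorer than the genome-wide mean, 16% were at least 2-fold higher in knockout and 17.4% at least 2-fold lower. These windows differ from the sites in width, level and selection, so their shares are not a background rate for the sites. Summed over all shared sites the ratio was 3.72 (3.68 to 3.75), because the sites with most reads had high ratios. With the richest bin of each pool in place of all member bins this sum gave 2.90.

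Wide shared sites had higher ratios than narrow ones in these pools. A site widens as more of its bins pass, and more passed in knockout, so width and ratio are not independent. The median ratio was 1.59 for single bins, of which 44 were at least 2-fold higher, 16 at least 2-fold lower and 44 in between. For sites of 2 or 3 bins the median was 2.32. All 11 sites with 4 or more bins were at least 2-fold higher in knockout, with a median of 6.74. Each of the 18 shared sites at least 2-fold lower had 3 bins or fewer.

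**Figure D4:**
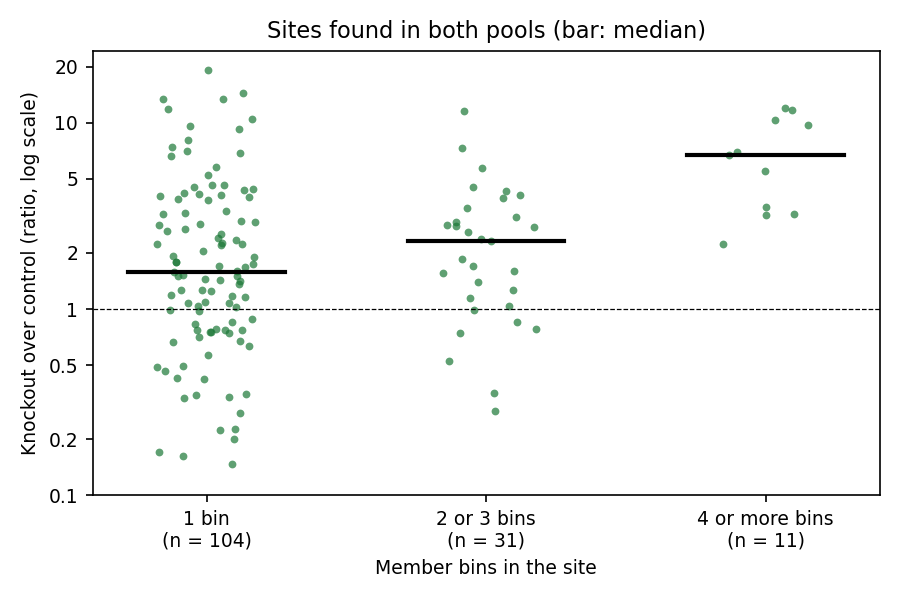
Knockout over control ratio of summed RPKM (vertical axis, log scale) for the 146 shared sites, by the number of member bins (horizontal axis); points are sites, spread sideways at random, bars are medians and the dashed line is a ratio of 1. Single bins spread from 0.147 to 19.1, and the 11 sites of 4 or more bins all lie above 2.

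The 10 shared sites with most reads held 69.5% of the shared-site reads in control and 82.7% in knockout. Every one had a ratio above 1, and 5 had a ratio above 9. The ranking summed reads over both pools, and shared sites held 49293 control reads against 175208 knockout reads. It therefore favoured sites high in knockout, and the direction of these ratios is partly set by that choice. By far the largest was a stretch of 75.9 kb on chromosome 11, at 3024001 to 3099900. Of its 759 bins, 629 were members, 365 of them in control and 616 in knockout. Its member bins averaged 12.9 in control and 41.3 RPKM in knockout, a ratio of 3.22 (3.17 to 3.26, exact binomial), and its highest bins were 45.3 and 126 RPKM. It contained 37.3% of all member reads in control and 27.2% in knockout.

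Read density in the chromosome 11 stretch was high along most of its length. Its median bin was at 9.45 in control and 33.7 RPKM in knockout, and knockout was higher in 680 of 759 bins. Across the 759 bins, which share the same 2 libraries and neighbouring sequence, log2(RPKM + 0.1) had a Pearson r of 0.785 between pools. That value includes 72 bins at 0 in control and 32 at 0 in knockout, and over the 629 member bins alone r was 0.383. The ratio was not even along the stretch. In the first 10 kb, where control averaged 1.18 RPKM and knockout 9.60 RPKM, it was 8.16. It was 4.90 in the next 10 kb, and between 2.51 and 3.71 in every later segment. Levels fell before the far end, from means of 14.8 RPKM in control and 37.0 RPKM in knockout over 70 to 75.9 kb. The rule places that end at the last bin past the threshold, so lower levels beyond it follow from the rule. The last 1 kb averaged 3.65 RPKM in control against 13.8 RPKM in knockout. The 1 kb after it averaged 0.88 and 1.26 RPKM.

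**Figure D5:**
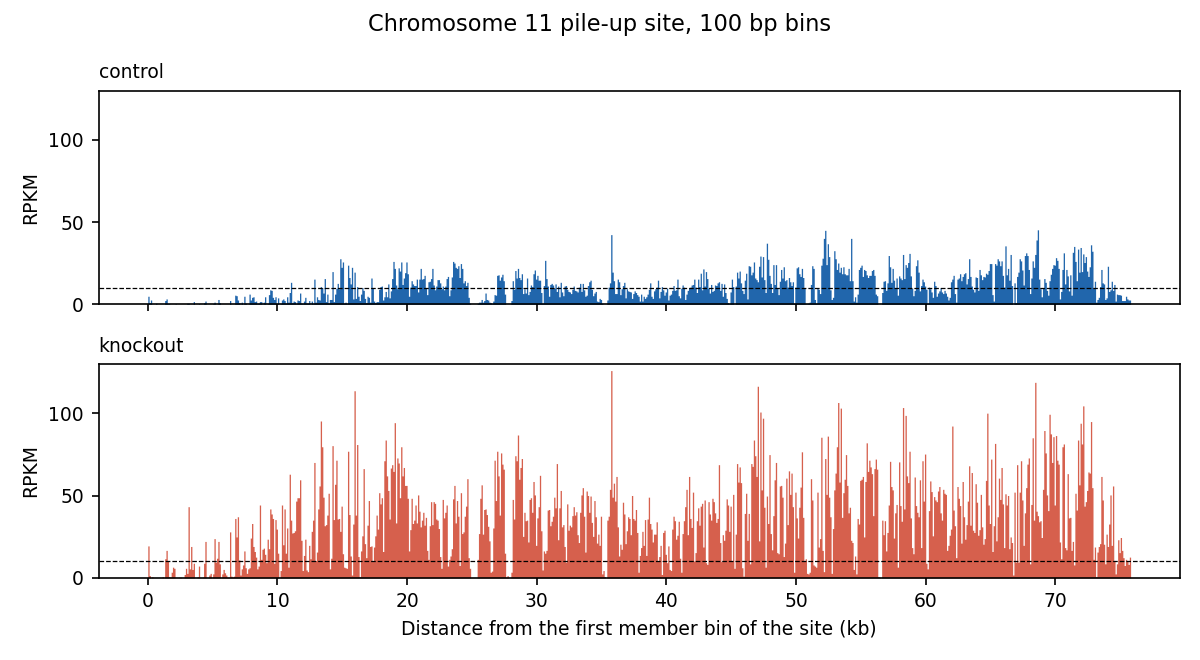
RPKM of each 100 bp bin (vertical axes, same scale) against the distance from the first member bin of the chromosome 11 site (horizontal axis, kb), in control (top) and knockout (bottom), with a dashed line at 10 RPKM. Over the first 10 kb control averages 1.18 RPKM and knockout 9.60 RPKM, with some knockout bins above the line. The site ends at 75.9 kb, and the highest bins are 45.3 RPKM in control and 126 RPKM in knockout.

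The tallest stacks of the knockout pool lay on chromosomes 2, 9 and 12. On chromosome 2 at 98502301 to 98507500, 25 of 52 bins were members, with means of 41.2 RPKM in control and 479 RPKM in knockout. Its ratio was 11.6 (11.2 to 12.1), and the highest bins were 177 and 2556 RPKM, the latter the highest of any autosome. Over its 25 member bins the Pearson r between pools was 0.847 on the same log2 scale. On chromosome 9 at 35112701 to 35113100, 4 adjacent bins averaged 72.5 in control and 869 RPKM in knockout, a ratio of 12.0 (11.2 to 12.9). On chromosome 12 at 3109801 to 3110100, 3 adjacent bins averaged 49.5 and 569 RPKM, a ratio of 11.5 (10.4 to 12.7). The intervals of these 3 ratios overlapped. This did not hold for all of the tallest knockout stacks. A single bin of chromosome 9, described next, reached 1234 RPKM in knockout, more than any bin of the chromosome 12 site. Its ratio of 14.5 (12.8 to 16.5) lay above the chromosome 2 and chromosome 12 intervals.

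Other leading sites had other shapes. On chromosome 9, a single bin at 91257501 to 91257600 had 85.4 RPKM (262 reads) in control and 1234 RPKM (3624 reads) in knockout, a ratio of 14.5 (12.8 to 16.5). The bins beside it averaged 0.165 and 0.17 RPKM, so the stack had no shoulder in either pool. A single bin of chromosome 2, at 60551801 to 60551900, had 215 in control and 886 RPKM in knockout, a ratio of 4.12 (3.78 to 4.50). It held 100% of the reads in the 1100 bp around it in both pools. On chromosome 17 at 39980001 to 39985600, 45 of 56 bins were members, 3 of them in control and 44 in knockout, with means of 5.63 and 19.9 RPKM. That ratio of 3.53 (3.26 to 3.83) came to 1.41 when only the richest bin of each pool was taken.

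Among the 10, a pair of bins on chromosome 10 at 77829101 to 77829300 did not follow the rest. It averaged 334 RPKM in control and 346 RPKM in knockout, with 2051 and 2031 reads and a ratio of 1.04 (0.973 to 1.10). The highest bins were 436 in control and 368 RPKM in knockout, which gives 0.842 in place of 1.04. Its level was the second highest of any shared site in control, so a tall stack was not always taller in knockout.

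Other tall control stacks were split. Chosen after their values were seen, 8 shared sites had a control bin at 100 RPKM or more. Of these, 4 were at least 2-fold higher in knockout, 3 were at least 2-fold lower, and the chromosome 10 pair was level. The highest control bin of all, on chromosome 17 at 10789201 to 10789300, had 484 RPKM in control and 78.3 RPKM in knockout, 6.18-fold lower. A pair of bins on chromosome 14 at 62266501 to 62266700 reached 114 and 42.2 RPKM, and a bin on chromosome 12 at 5207901 to 5208000 had 109 and 38.2 RPKM. Both pools therefore had stacks that were several times taller than in the other pool.

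The extremes of the ratio were single bins too. The highest ratio among shared sites was on chromosome 6 at 128779001 to 128779100, where 18.9 RPKM in control stood against 361 RPKM in knockout, a ratio of 19.1 (14.6 to 25.3). The lowest was on chromosome 4 at 62082801 to 62082900, with 97.1 RPKM in control and 14.3 RPKM in knockout, 6.79-fold lower. In both, the surrounding 5 kb differed by less than 2-fold, with 0.486 and 0.473 RPKM at the chromosome 6 bin and 0.571 and 0.956 RPKM at the chromosome 4 bin.

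Several of the largest shared sites lay at the centromeric ends of the assembled chromosomes. The first 1 Mb after the first bin with a read makes up 0.787% of the autosomal length. It held 7 of the 146 shared sites (4.79%), 2 of the 145 control-alone sites (1.38%) and 29 of the 1906 knockout-alone sites (1.52%). The last 1 Mb makes up the same 0.787% of the length. In it lay 3 shared (2.05%), 3 control-alone (2.07%) and 22 knockout-alone sites (1.15%). The 7 shared sites were on 6 chromosomes and held 54.4% of shared-site reads in control and 52.3% in knockout. Most of this was the chromosome 11 site, which alone held 50.4% and 43.6%, and the other 6 held 4.04% and 8.71%. Ratios of the 7 ran from 3.21 to 11.5 with a median of 6.74, against a median of 1.74 for the other 139 shared sites, and 6 of the 11 shared sites with 4 or more bins were among them.

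The chromosome 11 and chromosome 12 sites above were 2 of these 7. Chromosome 9 had another pair. From 2999901 to 3004800, 16 member bins averaged 3.93 in control and 40.6 RPKM in knockout, a ratio of 10.3 (8.90 to 12.0), and this site included the first bin of the chromosome with a read. From 3015201 to 3038000, 40 of 228 bins averaged 4.83 and 47.1 RPKM, a ratio of 9.74 (8.95 to 10.6). All 40 passed in knockout and 5 in control.

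The remaining 3 sites near the chromosome starts were smaller. On chromosome 18 at 3004801 to 3010900, 23 bins averaged 8.37 and 27.1 RPKM, a ratio of 3.24 (2.95 to 3.56). On chromosome 17 at 3077801 to 3084500, 12 bins averaged 3.23 and 21.8 RPKM, a ratio of 6.75 (5.56 to 8.25). On chromosome 13 at 3372301 to 3372800, 4 bins averaged 3.34 and 18.3 RPKM, a ratio of 5.48 (3.91 to 7.85). All 7 had more in knockout than in control. They were singled out after the values were seen.

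Sites found in knockout alone were the most numerous and mostly low. A single bin made up 1794 of the 1906 (94.1%), 88 had 2 or 3 bins and 24 had 4 or more, up to 17. The richest bin had a median of 12.3 RPKM in knockout and at most 167 RPKM. In control the same bin had a median of 0.65 RPKM, with 484 sites (25.4%) at 0. A control level of at least 5 times the autosomal mean was seen in 472 sites (24.8%), where 3.65% of all autosomal bins have it. Measures of isolation depend on the height of a stack, and these stacks were low. In 1054 sites (55.3%) each of the bins beside was under 10% of the richest bin in knockout. The richest bin held a median of 66.2% of knockout reads in 1100 bp, and the 5 kb around had medians of 0.486 RPKM in control and 0.653 RPKM in knockout. The bins beside the richest one had a median of 0.68 RPKM in knockout, the same as at shared sites, which were more often wide. Among single-bin sites this median was 0.68 RPKM for knockout-alone sites and 0.34 RPKM for shared sites.

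The highest knockout-alone sites were tall single bins. On chromosome 17 at 27637101 to 27637200 the bin had 9.45 RPKM in control, just under the threshold, and 167 RPKM in knockout. The bin on chromosome 8 at 125554301 to 125554400 had 3.91 and 129 RPKM. On chromosome 2 at 52732601 to 52732700 the levels were 9.12 and 117 RPKM. On chromosome 11 at 109469801 to 109469900 they were 1.63 and 115 RPKM, and on chromosome 10 at 66261401 to 66261500 they were 2.93 and 108 RPKM. In all 5 the richest bin held over 90% of the knockout reads in the 1100 bp around it, between 91.1% and 98.8%. All 5 also had control reads in that bin, between 5 and 29 of them.

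The 24 knockout-alone sites with 4 or more bins were chosen for several knockout bins past the threshold and no control bin past it, so their broad knockout signal and low control signal follow from the rule. Their richest bin held a median of 19.7% of knockout reads in 1100 bp, and the bins beside it had a median of 11.2 RPKM. The 5 kb around them averaged a median of 1.20 RPKM in knockout, 3.03 times the autosomal mean, and 0.626 RPKM in control, 1.63 times. The richest bin was at 0 in control in 8 of the 24. What these sites hold was not looked up, as no mm9 annotation was used.

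The 5 with most member bins, singled out after the values were seen, were these. On chromosome 11 at 53244101 to 53251300, 17 bins averaged 1.06 RPKM in control and 26.5 RPKM in knockout, 25.1-fold higher. On chromosome 1 at 26742801 to 26745100, 13 bins averaged 3.39 and 17.8 RPKM, 5.27-fold higher. On chromosome 13 at 96106001 to 96107200, all 12 bins were members and averaged 0.300 and 24.9 RPKM, from 11 control reads and 879 knockout reads. On chromosome 12 at 106455001 to 106460900, 11 bins averaged 0.534 and 27.8 RPKM, and on chromosome 9 at 75195601 to 75199200, 9 bins averaged 0.76 and 23.9 RPKM. No control bin in any of these 5 was above 7.82 RPKM.

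Sites found in control alone were as many as shared sites but almost all single bins, 143 of 145. Their richest bin had a median of 13.7 RPKM in control and at most 74.6 RPKM. The knockout pool usually had a lower stack in the same bin. Its median there was 4.09 RPKM, and 1 site was at 0 in knockout. At least 5 times the autosomal mean was reached in knockout in 122 of the 145 (84.1%), where 6.05% of all autosomal bins reach it. By the same measure, 24.8% of knockout-alone sites were rich in control; the difference was not tested.

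The control-alone stacks were isolated too. In 110 sites (75.9%) each of the bins beside was under 10% of the richest bin in control. That bin held a median of 81.0% of control reads in 1100 bp, and 48.4% of knockout reads. The 5 kb around had a median of 0.389 RPKM in control, 1.01 times its autosomal mean, while knockout had 0.456 RPKM, 1.15 times.

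The highest control-alone site was a pair of bins on chromosome 10 at 71759901 to 71760100, with highest levels of 74.6 RPKM in control against 7.49 RPKM in knockout. A bin on chromosome 11 at 76798701 to 76798800 had 72.7 and 7.49 RPKM, and one on chromosome 13 at 118725501 to 118725600 had 68.8 and 2.38 RPKM. The bin on chromosome 17 at 33799401 to 33799500 had 66.8 and 7.83 RPKM, and that on chromosome 5 at 104388301 to 104388400 had 56.4 and 7.83 RPKM. Each of these 5 had between 7 and 23 knockout reads in the site, below the threshold. The lowest level, 2.38 RPKM on chromosome 13, is common in knockout, where 1387694 autosomal bins lay at 2 to 5 RPKM. It does not show a stack there.

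Along the genome the sites were spread over all 19 autosomes. Their density ran from 0.679 per Mb on chromosome 14 to 1.15 per Mb on chromosome 11, with 1.13 on chromosome 18 and 1.11 on chromosome 17. The median distance to the next site was 302 kb for shared, 287 kb for control-alone and 285 kb for knockout-alone sites. Chromosome X, outside the rule, had 125 sites by the same steps, 0.750 per Mb, which is within the autosomal range. Of these, 8 were found in both pools, 5 in control alone and 112 in knockout alone, and the highest X bins were 45.9 in control and 73.2 RPKM in knockout. No bin of Y reached the threshold.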

How the data were processed

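H3K27ac STAR ChIP-seq of full-grown oocytes was analysed from 1 deposited track per genotype, in which the authors pooled 2 replicates. The deposited values are RPKM per 100 bp bin with empty bins left out. The unit was inferred from their sum. Per the submitters' processing notes the build was mm9 and Bowtie2 2.2.2 was used. How reads were extended, deduplicated or placed when they had many matches, and whether an input was used, is not given in the sources used here. Each can change the height of a stack.

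Reads were recovered as whole multiples of the value of 1 read, which held for 100% of values within 0.005 RPKM. Bins at 10 RPKM or more were grouped when less than 5 kb apart. Site ratios compare RPKM summed over member bins. Shares have Wilson intervals and ratios exact binomial (Clopper-Pearson) intervals. Sites named are the 10 shared sites with most reads, the 5 with the highest bin in each pool alone and the shared sites with the extreme ratios, besides those said to be chosen later. The members and lists were chosen with earlier results of these data known. The alternatives were other thresholds, grouping distances, scalings and summaries of a site. The code was tested on simulated data. Computations ran in Python 3.11.15 with SciPy 1.17.1, NumPy 2.4.6 and pandas 2.3.3, and plots in matplotlib 3.10.9.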

Additional observations from a re-analysis of the deposited data

How the results depend on the processing

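The counts depend mainly on the threshold. At 5 RPKM there were 4396 control bins, 73375 knockout bins and 1033 in both, which formed 1796 shared, 1754 control-alone and 38430 knockout-alone sites and held 0.955% of control and 5.20% of knockout reads. At 20 RPKM there were 261, 1094 and 192 bins and 59, 56 and 351 sites, with 0.169% and 0.696% of reads. Knockout-alone sites were the most numerous at each of these thresholds. Leaving out the chromosome 11 site, an alternative chosen after seeing the data, left 340 control bins and 176 bins in both, 0.136% and 0.697% of reads, a summed shared ratio of 4.22 and a median of 1.86. Grouping at 1 or 20 kb, equal read numbers at the threshold, equal autosomal means and keeping the chromosome 2 segment moved no count of bins or sites by over 1.5 times. The summed and median ratios were 2.90 and 1.79 with the richest bin of each pool, 3.65 and 1.91 over all bins spanned, and 3.60 and 1.82 with equal autosomal means. Of 59 recomputed ratios of 12 named sites, 22 could not change by construction, such as the richest bin of a single-bin site. Of the other 37, 30 stayed within their counting interval, 6 moved outside it in the same direction and 1 reversed, the chromosome 10 pair with 0.842 for its richest bins. No paired analysis was possible because each track pools both replicates of a genotype, and leaving out a replicate could not be run for the same reason. How far the counts of sites would differ between 2 pools of the same genotype is therefore unknown. At low knockout-alone sites the control level rests on few reads, as 1 read is worth 0.326 RPKM in control. The control pool was the deeper of the 2, with 30694806 reads against 29367645 in knockout.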

Other observations

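The segment of chromosome 2 that was left out, from 77700001, held 344 bins at 10 RPKM or more in knockout and 0 in control. Had it been kept, the knockout-alone sites would have numbered 1913 in place of 1906.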
